A study of Mus musculus with 2 samples.

Results

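The genes described are 41 cofactor genes of Runx3, out of 23183 genes with a value: the subunits of the SWI/SNF chromatin remodelling complex (23 genes), those of the general transcription factor TFIID (14 genes), and 4 readers and writers of histone acetylation, *Brd2*, *Brd3*, *Ep300* and *Crebbp*. They were chosen by name, as the complexes that join Runx3 at the restriction point, with *Brd3* and *Crebbp* beside their paralogs. Every one of them was in the table. Poly(A) RNA was sequenced as 1 library of KPR- cells and 1 library of KPRrestored cells, so each difference compares 2 libraries, has no replicate check and carries no p-value. KPR- is an immortalized line from a lung cancer of a mouse with the recombinase Flp-ERT2 and a Tomato reporter. Its alleles include *Runx3* flox/FSF, *p53* flox/flox and a heterozygous oncogenic *K-Ras* allele that Cre switches on. Adenoviral Cre had activated this *K-Ras* allele and deleted *p53* and the floxed *Runx3* allele. The other *Runx3* allele was kept off by its stop cassette. Both conditions share these changes. 4-hydroxytamoxifen (4-OHT) activates the Flp-ERT2 recombinase, which cuts out the stop cassette and gives KPRrestored cells. The labels give *RUNX3* -/- at 0 h and *RUNX3* -/+ at 16 h, and list 1 μM 4-OHT for both samples. *Runx3* status and time with 4-OHT thus change together between the libraries, and their parts in a difference cannot be told apart. No source says from how many cultures or clones each library came.

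In normal cells the restriction point is the moment at which a cell commits to division. Runx3 is known to bind DNA there and gather p300, an acetyltransferase that marks open chromatin, and Brd2, a BET protein that binds that mark. It also gathers SWI/SNF, an ATP-driven machine that moves nucleosomes, and TFIID. TFIID recognises the core promoter and starts the assembly of the RNA polymerase II machinery. CBP, the paralog of p300, and Brd3, a second BET protein, are not named in the paper's account of this complex. SWI/SNF exists as canonical BAF, PBAF and a smaller non-canonical form, which share a core and differ in a few defining subunits, and several of its genes are known as tumour suppressors in lung cancer. The values below are RNA levels, which say nothing of the amount of the proteins or of which proteins are bound to each other.

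The levels are FPKM, fragments scaled to transcript length and depth, so levels can be compared between genes. The low FPKM values fall on steps that whole fragments make, from which about 21.8 M fragments were estimated in the KPR- library and 22.4 M in the KPRrestored library. Epithelial markers were present (*Krt8* at 1711 and 1631 FPKM, *Epcam* at 105 and 91.6 FPKM), although 1 of the 6, *Krt7*, fell from 1229 to 743 FPKM. Of the lung markers, *Sftpc*, *Sftpb*, *Sftpa1* and *Scgb1a1* were listed at 0 in both libraries and *Nkx2-1* had 0.0444 and 0.0216 FPKM, while *Foxa2* rose from 10.7 to 16.1 FPKM. Of 5 immune markers, 3 were listed at 0 in both libraries, *Ptprc* had 0 and 0.00892 FPKM and *Cd68* 3.08 and 6.78 FPKM. Fibroblast and endothelial markers stayed under 0.4 FPKM, except for *Col1a1* with 12.2 FPKM in KPR- and 4.21 FPKM in KPRrestored and *Kdr* with 1.10 and 2.05 FPKM. The part of these markers in the differences described here was not tested. *Runx3* had 0.348 FPKM in KPR- and 0.349 FPKM in KPRrestored, from about 28 and 29 fragments, so its level did not tell the libraries apart. A value per gene cannot show which allele the RNA came from, and the libraries are called by their labels throughout. From immunoprecipitation and immunoblots of KPRrestored cells, the paper reports restored Runx3 protein. It also reports that this protein associated with p300, Brd2, Tbp of TFIID and the SWI/SNF subunit encoded by *Smarca4*. The RNA levels given here do not test either point. *Trp53* had 2.12 and 2.17 FPKM. *Cdkn2a*, the gene of Arf and not altered by design, had 206 and 244 FPKM. The paper reports Arf protein in KPRrestored but not in KPR- cells. A value per gene joins all transcripts of *Cdkn2a*, so it is not a level of Arf.

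The sequence upstream of the start site was taken from RefSeq (GRCm38.p6) for 35 of the 41 genes, 6 of them with more than 1 start. The runs printed here are those of *Phf10* and *Dpf1*, the SWI/SNF genes with the largest differences, and of *Brd7* and *Taf10*, which carry a RUNX motif (TGTGGT or TGCGGT, on either strand) upstream of the start. Capitals mark the RUNX matches. Each run reads 5′ to 3′ on the gene's strand and ends at the last base before any annotated exon, which left out 13 bases before the RefSeq start of *Phf10*, 54 of *Dpf1*, 22 of *Brd7* and 23 of *Taf10*. The positions are chr17:14961274-14961510 (minus strand) for *Phf10*, chr7:29303755-29303950 (plus strand) for *Dpf1*, chr8:88362195-88362422 (minus strand) for *Brd7* and chr7:105744362-105744588 (minus strand) for *Taf10*.
Phf10: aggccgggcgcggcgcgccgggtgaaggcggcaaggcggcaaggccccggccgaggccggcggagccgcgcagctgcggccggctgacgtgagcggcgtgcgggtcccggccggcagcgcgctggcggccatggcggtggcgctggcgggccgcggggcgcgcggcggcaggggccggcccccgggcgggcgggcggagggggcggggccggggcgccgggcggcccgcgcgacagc
Dpf1: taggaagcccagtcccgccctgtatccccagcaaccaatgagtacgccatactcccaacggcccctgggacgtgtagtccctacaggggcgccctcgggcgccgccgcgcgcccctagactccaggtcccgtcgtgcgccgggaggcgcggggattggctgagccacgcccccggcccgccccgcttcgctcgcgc
Brd7: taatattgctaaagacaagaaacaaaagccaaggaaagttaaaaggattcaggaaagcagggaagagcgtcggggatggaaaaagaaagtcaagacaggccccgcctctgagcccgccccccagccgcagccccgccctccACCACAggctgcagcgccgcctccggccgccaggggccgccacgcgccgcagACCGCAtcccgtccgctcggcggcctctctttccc
Taf10: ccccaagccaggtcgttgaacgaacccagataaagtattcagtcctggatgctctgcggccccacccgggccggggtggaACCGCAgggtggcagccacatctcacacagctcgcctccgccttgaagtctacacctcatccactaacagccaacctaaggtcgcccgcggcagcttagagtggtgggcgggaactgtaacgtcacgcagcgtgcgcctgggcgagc

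The run of *Phf10* was 88.2% G or C, against 73.0% for *Dpf1*, 63.2% for *Brd7* and 63.0% for *Taf10*. *Brd7* held ACCACA and ACCGCA, the motif read on the other strand, starting 109 and 57 bases before the start, and *Taf10* held ACCGCA starting 170 bases before it. The runs of *Phf10* and *Dpf1* held no RUNX match, and that of *Dpf1* held 2 matches to CCAAT (searched on both strands). In windows from 250 bases before to 50 bases after the start, 6 of the 35 genes held a RUNX match (17.1%): *Arid1b*, *Bcl7b*, *Brd2*, *Brd7*, *Pbrm1* and *Taf10*. The share was 24.02% of 9012 genes with a mean of at least 1 FPKM and 25.03% of all 27025 genes with a window. With the 250 upstream bases alone, 3 of the 35 genes held a match (8.57%), against 20.4% and 20.9%. These 3 were *Brd7*, *Taf10* and *Pbrm1*, and the run of *Pbrm1* is not printed. An ETS motif (CCGGAAG, both strands) was in the longer windows of 9 of the 35 genes (25.7%), 5 of them among 12 TFIID genes, against 21.8% of the expressed genes and 9.93% of all genes. CCAAT was in 6 of the 35 (17.1%), against 43.4% and 41.1%. These are matches of letters in a window and show no binding.

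Most of the 41 genes differed little between the libraries. On the scale of log2(FPKM + 0.005), KPRrestored minus KPR-, 2 genes were higher by 0.5 or more, *Phf10* and *Taf7*, and 1 was lower by as much, *Dpf1*. That is 7.32% of the 41 genes. In bulk RNA, fewer cells with a transcript and less of it per cell cannot be told apart. Over all 23183 genes 26.7% passed this threshold, 13.8% higher and 12.9% lower. All 41 cofactor genes had a mean of at least 1 FPKM, and among the 11231 genes at that level 21.4% passed it, 12.1% higher and 9.29% lower. The median difference of the 41 genes was -0.04, with 18 above 0 and 23 below, and the median of the 11231 genes was 0.01 with quartiles of -0.23 and 0.27. By complex, SWI/SNF had 1 gene higher and 1 lower with a median of -0.06, TFIID 1 higher and 0 lower with a median of 0.03, and the acetyl readers and writers 0 either way with a median of -0.12. Scaling to the same upper quartile turned the TFIID median to -0.01, and removal of the trend with transcript length turned that of the acetyl readers and writers to 0.01.

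**Figure D1:**
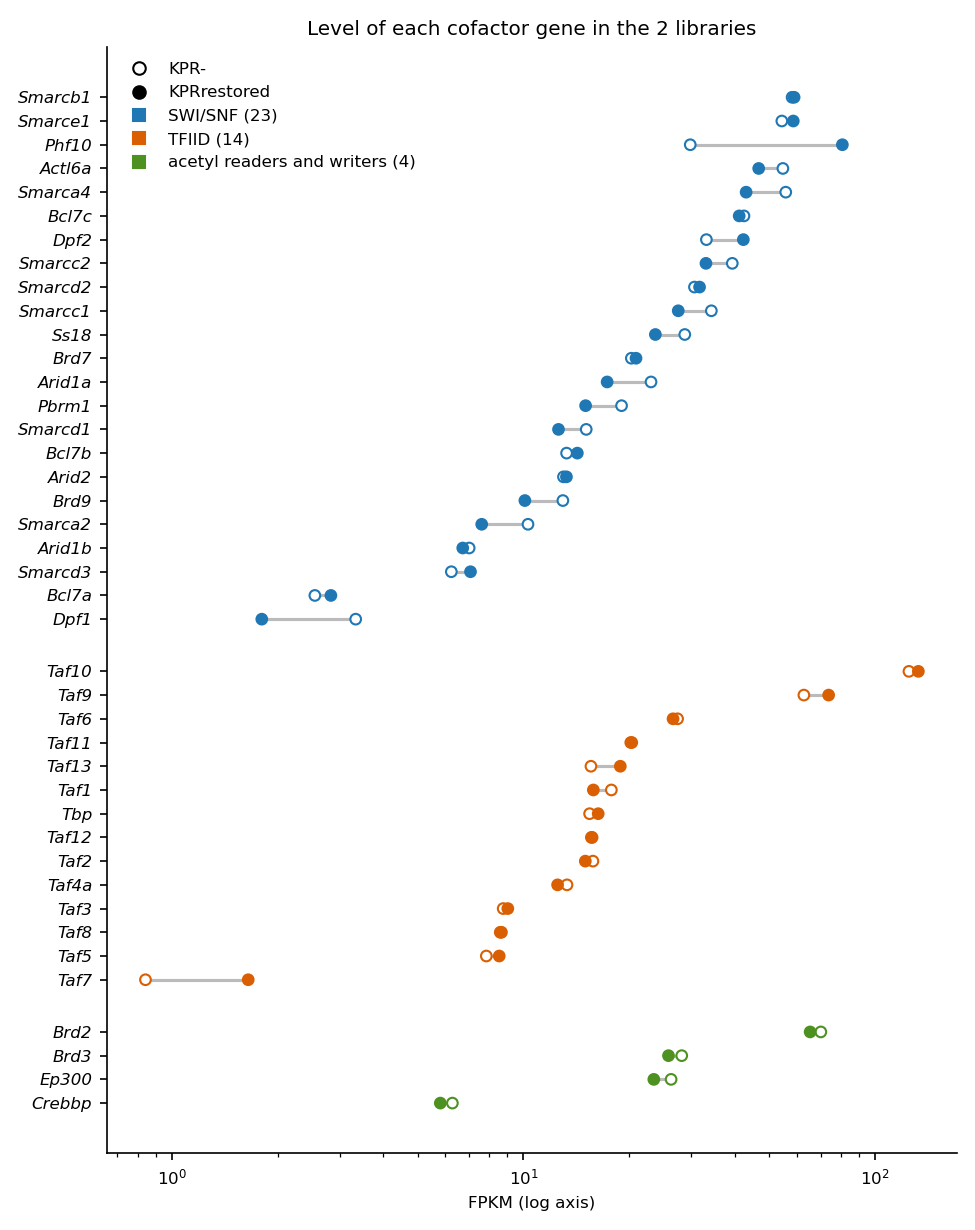
FPKM (log axis) of each of the 41 cofactor genes in KPR- (open circles) and KPRrestored (filled circles), 1 library each and without error bars, ordered by mean level within each complex. Levels run from 0.842 FPKM for *Taf7* in KPR- to 133 FPKM for *Taf10* in KPRrestored, and *Phf10*, *Dpf1* and *Taf7* show the widest gaps.

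The catalytic ATPase is *Smarca4* (Brg-1) or its paralog *Smarca2* (Brm), either of which drives the remodelling. *Smarca4*, on chromosome 9 from 21616169 to 21704230 (plus strand, GRCm38), had 55.7 FPKM in KPR- and 42.9 FPKM in KPRrestored, a log2 difference of -0.37. About 7476 and 5926 fragments lay behind these values, and the 95% counting interval, an exact Clopper-Pearson interval that covers counting error only, ran from -0.42 to -0.33. *Smarca2* had 10.3 and 7.61 FPKM, a log2 difference of -0.44 (-0.56 to -0.32). Both ATPase genes were thus lower in the library labelled KPRrestored by more than counting error but by less than the threshold of 0.5, and their proportion was nearly the same: *Smarca4* made up 84.4% of their summed FPKM in KPR- and 84.9% in KPRrestored.

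The core subunits hold the complex together. *Smarcc1* and *Smarcc2*, the paired scaffold subunits, were both lower, with 34.2 and 27.5 FPKM for *Smarcc1* (log2 difference -0.31, interval -0.38 to -0.25) and 39.2 and 33.01 FPKM for *Smarcc2* (-0.25, -0.32 to -0.18). *Smarcb1*, the small core subunit that is lost in rhabdoid tumours, had 58.0 FPKM in KPR- and 58.8 FPKM in KPRrestored, and its interval of -0.07 to 0.11 spanned 0. *Smarce1*, a DNA-binding core subunit, had 54.2 and 58.5 FPKM (0.11, 0.04 to 0.18). Among the *Smarcd* paralogs, of which a complex takes 1, *Smarcd1* was lower with 15.1 and 12.6 FPKM (-0.26, -0.40 to -0.13), while *Smarcd2* had 30.6 and 31.7 FPKM and *Smarcd3* 6.24 and 7.07 FPKM, both with intervals that spanned 0. The 3 genes added up to 51.9 FPKM in KPR- and 51.3 FPKM in KPRrestored, with *Smarcd1* at 29.0% and then 24.5% of that sum, *Smarcd2* at 59.0% and 61.7%, and *Smarcd3* at 12.01% and 13.8%. *Smarcd3* shares 2466 exon bases on the opposite strand with *Chpf2*.

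Among the actin-like and other subunits that sit on the ATPase, *Actl6a* and *Ss18* were lower and none had an interval above 0. *Actl6a*, the actin-related subunit of dividing cells, had 54.6 FPKM in KPR- and 46.6 FPKM in KPRrestored (-0.23, -0.32 to -0.14), and its paralog of neurons, *Actl6b*, was listed at 0 in both libraries. *Ss18*, known from the fusion gene of synovial sarcoma, had 28.7 and 23.7 FPKM (-0.28, -0.36 to -0.19). The 3 *Bcl7* genes had intervals that spanned 0. *Bcl7c*, the most abundant of them per length, had 42.3 and 41.03 FPKM, *Bcl7b* 13.3 and 14.2 FPKM and *Bcl7a* 2.55 and 2.84 FPKM. Their sum was 58.1 FPKM in each library.

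Of the subunits that define canonical BAF, *Dpf1* was lower by more than the threshold of 0.5, and *Arid1a* was lower by less. *Arid1a*, the large DNA-binding subunit often mutated in cancer, had 23.04 FPKM in KPR- and 17.3 FPKM in KPRrestored, a log2 difference of -0.41 (-0.48 to -0.35). Its paralog *Arid1b* had 7.01 and 6.72 FPKM (-0.06, -0.16 to 0.04), so the share of *Arid1a* in their summed FPKM was 76.7% in KPR- and 72.0% in KPRrestored. *Dpf1*, a histone-reading subunit known from neurons, fell from 3.33 FPKM in KPR- to 1.80 FPKM in KPRrestored, and its log2 difference was -0.88. This rested on about 152 and 85 fragments, with an interval of -1.28 to -0.49, and with the coding length in place of the transcript length (about 69 and 38 fragments) the interval was -1.51 to -0.31. *Dpf2*, the widely expressed paralog, had 33.1 FPKM in KPR- and 42.2 FPKM in KPRrestored (0.35, 0.27 to 0.43), and *Dpf3* was listed at 0 in both. *Dpf2* therefore made up 90.8% of the summed FPKM of *Dpf1* and *Dpf2* in KPR- and 95.9% in KPRrestored.

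PBAF contained the largest difference of all 41 genes. *Phf10*, the paralogous histone-reading subunit of PBAF, lies on chromosome 17 from 14945009 to 14961273 (minus strand) and rose from 29.8 FPKM in KPR- to 80.6 FPKM in KPRrestored. The log2 difference was 1.44, or 2.71-fold, from about 941 and 2616 fragments, with an interval of 1.33 to 1.54. The other PBAF genes did not rise with it. *Arid2*, the DNA-binding subunit of PBAF, had 13.0 and 13.2 FPKM (0.03, -0.05 to 0.11) and *Brd7*, its bromodomain subunit, 20.3 and 20.9 FPKM (0.04, -0.06 to 0.15). *Pbrm1*, the polybromo subunit that is mutated in kidney cancer, was lower, with 19.0 and 15.0 FPKM (-0.34, -0.42 to -0.26). The single gene here that marks non-canonical BAF, *Brd9*, had 12.9 and 10.1 FPKM (-0.36, -0.53 to -0.19). Its partners *Bicra* and *Bicral*, outside the 41 genes, had differences of -0.08 and -0.09 with intervals that spanned 0.

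*Phf10* shares 470 exon bases with *1600012H06Rik* on the opposite strand, which had 15.6 FPKM in KPR- and 12.1 FPKM in KPRrestored, the other direction. The kit keeps strand, and whether the counting used it is not given in the sources used here. Nearby, *9030025P20Rik* had a difference of 0.16 and *Ermard* of 0.33, so none of the 3 neighbours with a mean of at least 1 FPKM within 100 kb passed the threshold. Nor did the neighbours of *Dpf1* at that level, with differences from -0.34 for *Sipa1l3* to 0.34 for *Ppp1r14a*. Set together after the values were seen, *Phf10*, *Dpf1* and *Dpf2*, paralogous subunits with the same place in the complex, summed to 66.2 FPKM in KPR- and 125 FPKM in KPRrestored. Within that sum *Phf10* was at 45.0% and then 64.7%, *Dpf2* at 49.99% and 33.8%, and *Dpf1* at 5.04% and 1.45%.

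**Figure D2:**
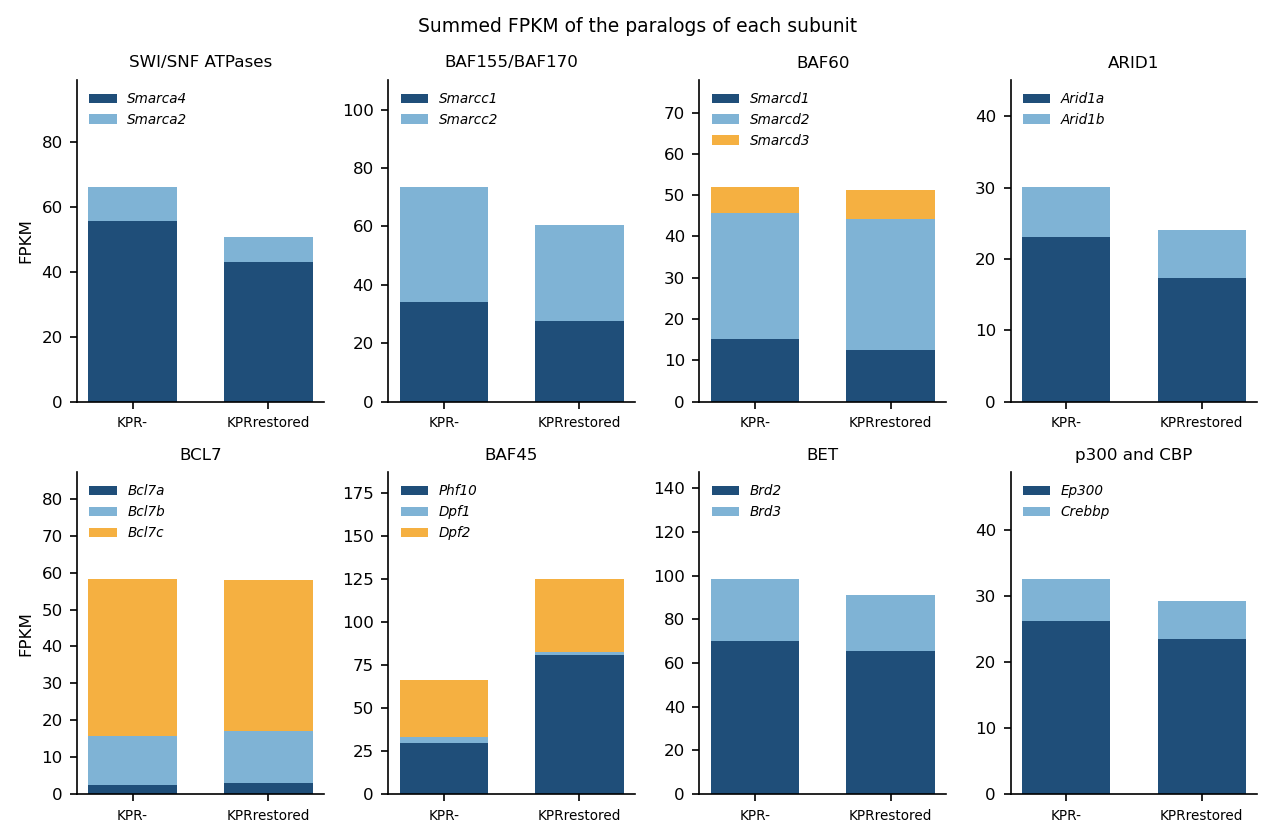
Stacked bars of the summed FPKM of the paralogs of each subunit in KPR- and KPRrestored, 1 library each, with axes that start at 0 and no error bars. The summed ATPase level was 66.0 FPKM in KPR- and 50.5 FPKM in KPRrestored, the *Bcl7* sum was 58.1 FPKM in each, and the sum of *Phf10*, *Dpf1* and *Dpf2* was 66.2 and 125 FPKM.

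Among the TFIID genes, *Tbp*, which binds the TATA box, had 15.4 FPKM in KPR- and 16.3 FPKM in KPRrestored, a log2 difference of 0.08. Its interval was 0.02 to 0.14 with the longest annotated transcript (12794 bases) and -0.18 to 0.33 with the coding length (948 bases), and it shares 2582 exon bases on the opposite strand with *Pdcd2* (26.9 and 40.7 FPKM). *Taf1*, the largest subunit and the scaffold of the complex, was slightly lower with 17.8 and 15.8 FPKM (-0.17, -0.26 to -0.08). *Taf2*, which contacts the promoter around the start site, had 15.8 and 15.0 FPKM (-0.07, -0.17 to 0.03), and *Taf5*, with its WD40 repeats, 7.84 and 8.53 FPKM (0.12, -0.05 to 0.29). *Taf7*, a partner of *Taf1*, was the TFIID gene with the lowest level and rose from 0.842 FPKM in KPR- to 1.65 FPKM in KPRrestored, and its log2 difference was 0.97. About 57 and 114 fragments lay behind it, with an interval of 0.49 to 1.45. With the coding length these were about 15 and 30 fragments and the interval was 0.02 to 1.96, so the size of this difference is poorly fixed. A pseudocount of 1 gave 0.52. Its nearest counterpart by name, *Taf7l*, had 0.0265 and 0.0258 FPKM. Within 100 kb of *Taf7* lie genes of the gamma protocadherin cluster, and the 4 with a mean of at least 1 FPKM had differences above 0: *Pcdhga5*, past the threshold with 1.80 and 2.61 FPKM (0.54), *Pcdhgb2* (0.22), *Pcdhgb4* (0.20) and *Pcdhgb6* (0.16). Among those at lower levels, differences ran from -0.07 for *Pcdhga3* to 1.29 for *Pcdhga1* (0.204 and 0.506 FPKM). *Pcdhga4* had 0.389 and 0.702 FPKM (0.84), while *Pcdhga6* (0.03) and *Pcdhgb5* (0.07) differed little. *Slc25a2*, 1746 bases from *Taf7*, had 0.120 and 0.117 FPKM (-0.03). The part of these neighbours in the value of *Taf7* was not tested.

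The 9 TAFs with a histone fold, which pair with each other inside TFIID as histones do, had no member past the threshold and a median of 0.01. *Taf10*, shared with the SAGA coactivator, was the most abundant of the 41 genes per length, with 125 FPKM in KPR- and 133 FPKM in KPRrestored (0.09, 0.05 to 0.13). Its interval was -0.03 to 0.20 with the coding length, and it shares 2106 exon bases on the opposite strand with *Ilk*. *Taf9*, also of SAGA, had 62.7 and 73.7 FPKM (0.23, 0.13 to 0.34), but 1564 of its 2120 exon bases are shared on the same strand with *Ak6* (41.4 and 52.7 FPKM), and the split of fragments between the pair is uncertain. *Taf13* had 15.6 and 18.8 FPKM (0.28, 0.14 to 0.42), and its interval spanned 0 with the coding length (-0.27 to 0.82). *Taf6* had 27.4 and 26.6 FPKM, *Taf11* 20.3 and 20.2 FPKM, *Taf12* 15.7 and 15.6 FPKM, *Taf4a* 13.3 and 12.5 FPKM, *Taf3* 8.76 and 9.02 FPKM and *Taf8* 8.59 and 8.66 FPKM. Each of these last 6 genes had an interval that spanned 0, with differences from -0.09 to 0.04. *Taf6* shares 1185 exon bases on the opposite strand with *Ap4m1*.

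The 4 acetyl readers and writers had differences below 0 in the library labelled KPRrestored, and with the length trend removed *Ep300* (0.05) and *Crebbp* (0.12) were above 0. *Brd2*, a BET reader of acetylated histones on chromosome 17 from 34112023 to 34122634 (minus strand), had 70.0 FPKM in KPR- and 65.3 FPKM in KPRrestored (-0.10, -0.15 to -0.05), and *Brd3*, a second BET reader, 28.2 and 25.8 FPKM (-0.13, -0.20 to -0.05). *Ep300*, which encodes p300, had 26.3 and 23.5 FPKM (-0.16, -0.22 to -0.11). *Crebbp*, which encodes CBP, had 6.28 and 5.80 FPKM (-0.11, -0.22 to -0.01), with an upper limit of 0.02 with the coding length. The proportions were nearly equal in the libraries: *Brd2* made up 71.3% of *Brd2* plus *Brd3* in KPR- and 71.6% in KPRrestored, and *Ep300* 80.7% and 80.2% of the acetyltransferase pair.

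**Figure D3:**
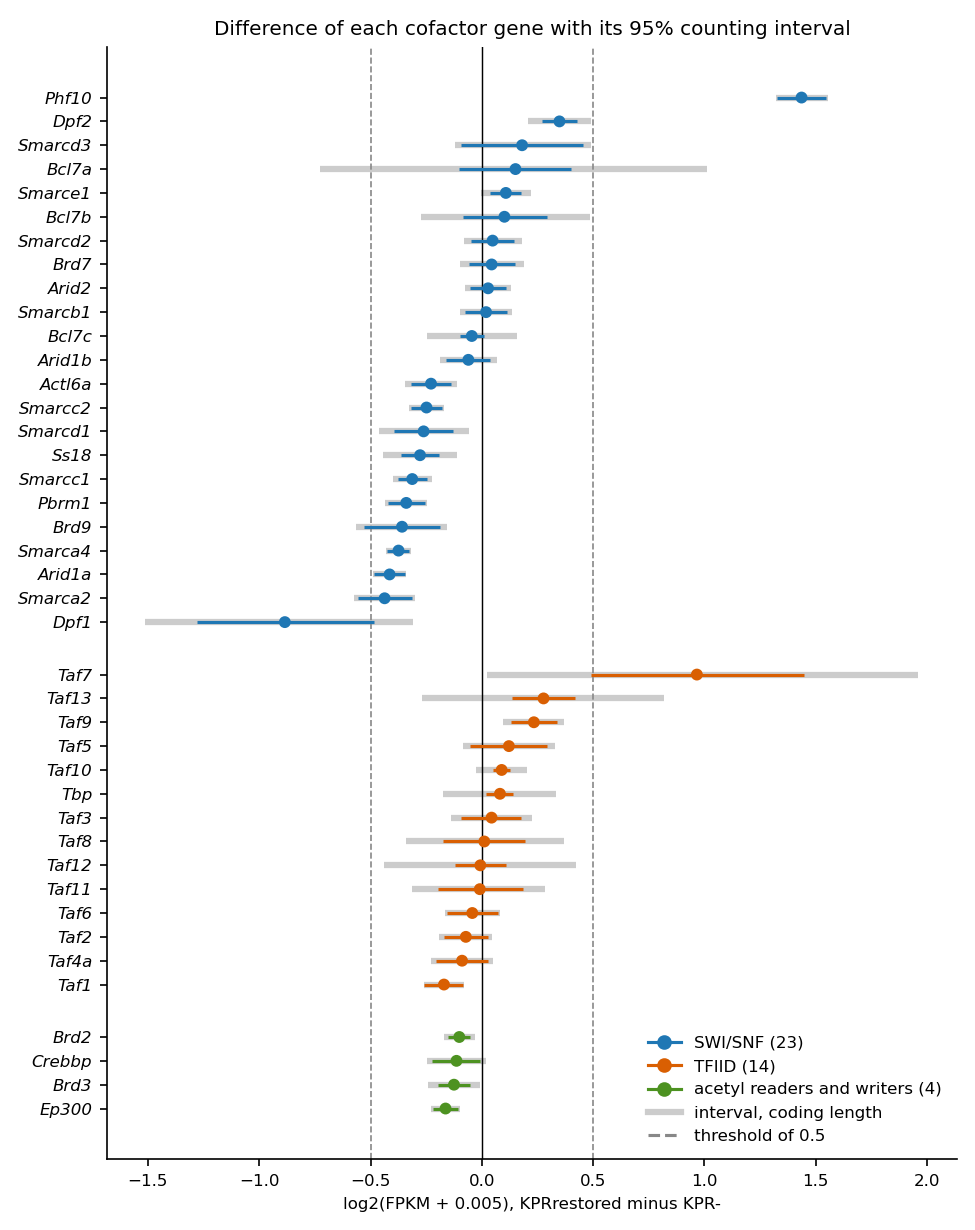
Difference of each cofactor gene, log2(FPKM + 0.005) in KPRrestored minus KPR-, with its 95% counting interval from the longest transcript (coloured bar) and from the coding length (grey bar); dashed lines mark the threshold of 0.5. *Phf10* at 1.44, *Taf7* at 0.97 and *Dpf1* at -0.88 lie outside the dashed lines, and the 4 acetyl readers and writers lie between -0.16 and -0.10, before the length trend is removed.

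Counting error is small for genes at these levels, so an interval away from 0 is common: 67.3% of 11134 genes with a mean of at least 1 FPKM had one, 34.3% above 0 and 33% below. Of the 41 cofactor genes, 8 had an interval above 0, 16 below, and 17 spanned 0. In SWI/SNF the numbers were 3 above and 11 below, in TFIID 5 above and 1 below, and of the acetyl readers and writers 0 above and 4 below. With coding lengths, 4 of the 41 genes stayed above 0 (*Phf10*, *Dpf2*, *Taf7* and *Taf9*) and 15 below. No shares over all genes are given with coding lengths, so these counts have no matching background and show no lean of the 41 genes. The counting intervals hold no variation between cultures, which 1 library per condition cannot give.

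Differences moved with transcript length over the whole table, and several of the lower SWI/SNF genes have long transcripts. Among genes with a mean of at least 1 FPKM, the median difference was 0.09 for the 2310 genes with transcripts of 1000 to 2000 bases, -0.05 for the 2238 genes of 4000 to 6000 bases and -0.23 for the 522 genes of 8000 bases or more, of which 75.9% were below 0. Across the 41 genes the difference and the log of the length had a Pearson r of -0.30 and a Spearman rho of -0.40, and across 11172 expressed genes these were -0.07 and -0.21. The points of each correlation are genes of the same 2 libraries, not replicates. The cofactor genes were not lower at every length. The 6 of 8000 bases or more had a median of -0.09, against -0.23 for all expressed genes. The 12 of 4000 to 6000 bases had -0.11, against -0.05. *Arid1a*, with a transcript of 8175 bases, had a difference of -0.41, and -0.23 once the trend over all genes was taken off. Taking off the trend gave -0.24 for *Smarca4* and -0.32 for *Smarca2*. Other genes moved away from 0 or changed sign: *Tbp* was at 0.35 in place of 0.08, *Arid1b* at 0.18 in place of -0.06, *Arid2* at 0.22 in place of 0.03, *Brd9* at -0.42 in place of -0.36 and *Actl6a* at -0.31 in place of -0.23. The length of *Tbp* is that of its longest annotated transcript, far above its coding length. The same step left 0.05 for *Ep300* and 0.12 for *Crebbp*, so the acetyl readers and writers had a median of 0.01 and 2 of the 4 genes above 0. *Phf10* was at 1.34, *Taf7* at 0.95 and *Dpf1* at -0.95, and the medians were -0.07 for SWI/SNF and 0.05 for TFIID. What set the trend with length was not tested.

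**Figure D4:**
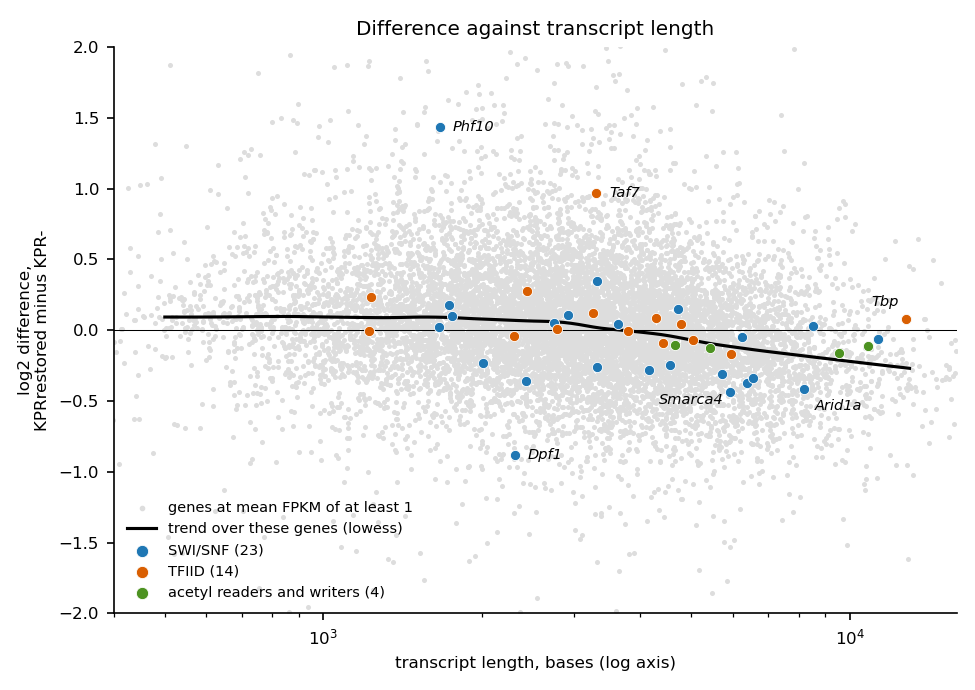
Difference of each gene, log2(FPKM + 0.005) in KPRrestored minus KPR-, against the length of its longest transcript (log axis), for genes with a mean of at least 1 FPKM (grey) and the 41 cofactor genes (coloured); genes outside the axes are not drawn. The line, a lowess fit over the grey genes, lies above 0 for short transcripts and below 0 for long ones, and *Smarca4* and *Arid1a* lie below it.

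Other genes of the same machinery were set beside the 41. The 10 genes of the MLL/COMPASS histone methyltransferase complexes, which are also named with the Runx3 complex, had 0 genes past the threshold and a median of -0.19. All 4 of its methyltransferase genes were lower: *Kmt2a* had 9.75 and 7.87 FPKM, *Kmt2b* 17.7 and 13.4 FPKM, *Kmt2c* 3.59 and 2.80 FPKM and *Kmt2d* 14.9 and 12.1 FPKM, with differences from -0.40 to -0.30. Their transcripts are 8469 to 19823 bases long, in the range where the median of all expressed genes was -0.23, and with the length trend removed the differences were 0.00089 for *Kmt2a*, -0.21 for *Kmt2b*, -0.06 for *Kmt2c* and 0.04 for *Kmt2d*. Of 31 genes of other remodellers (ISWI, CHD and NuRD, INO80 and SRCAP), 2 rose and 4 fell, with a median of -0.13. That is 19.4% of the list, against 26.7% of all genes. The rise among those with a mean of at least 1 FPKM was that of *Chd2* (7.94 to 13.2 FPKM), and the largest falls were those of *Smarca1* (2.06 to 0.900 FPKM) and *Chd3* (69.9 to 44.2 FPKM). With the length trend removed, *Chd2* was at 0.93, *Smarca1* at -1.14 and *Chd3* at -0.50. The other falls were then at -0.29, within the threshold.

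The 17 genes of the other general transcription factors had a median of 0.11, against 0.03 for TFIID, with 1 gene higher, *Gtf2f1* of TFIIF (70.0 to 99.3 FPKM), and 12 of the 17 above 0. That 1 gene is 5.88% of the list, against 26.7% of all genes, and 5728 of the 11231 expressed genes were above 0. With the length trend removed, *Gtf2f1* was at 0.41, within the threshold. No median of the 17 genes is given with that trend removed, so 0.11 and 0.03 do not rank the lists apart from length. The 18 other acetyltransferase and bromodomain genes had a median of -0.12, with 0 higher and 1 lower (5.56% of the list), *Atad2* (57.4 to 36.9 FPKM). With the length trend removed, *Atad2* was at -0.53. Of 13 paralogs of the cofactor genes, 8 had a mean of at least 1 FPKM and none of these passed the threshold, against 21.4% of all genes at that level. *Tbpl1*, a paralog of *Tbp*, lay just under it at 0.499 (10.2 and 14.4 FPKM, interval 0.35 to 0.65). The lowest of the 8 was *Taf4b* at -0.38 (2.87 and 2.21 FPKM, -0.63 to -0.13). Neither the RUNX genes nor *Cbfb* passed the threshold. *Cbfb*, the common DNA-binding partner, had 42.4 and 37.2 FPKM, *Runx1* 9.40 and 10.5 FPKM and *Runx2* 9.32 and 7.15 FPKM.

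**Figure D5:**
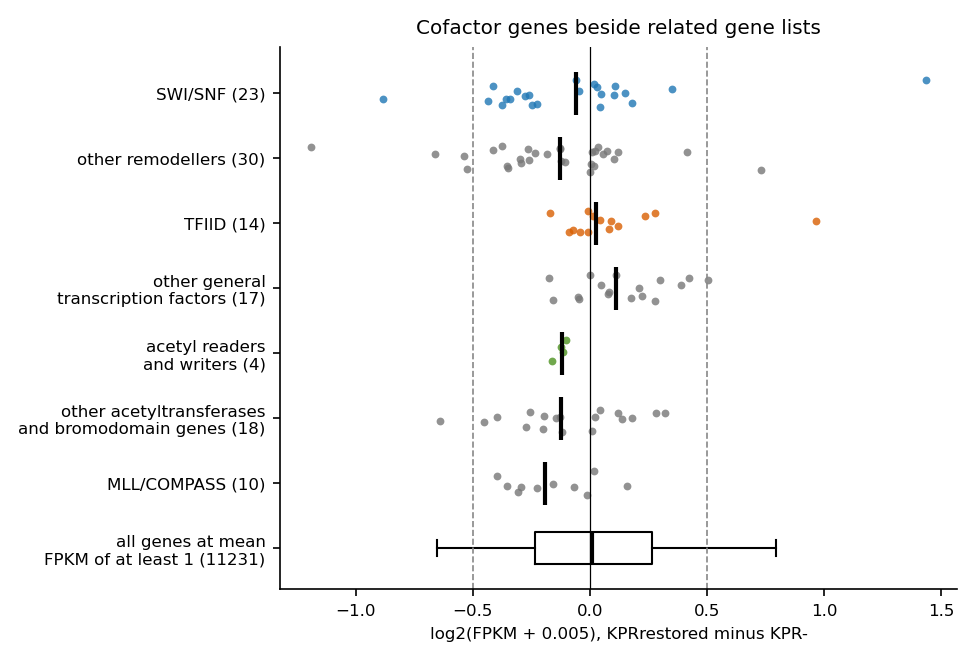
Difference of each gene, log2(FPKM + 0.005) in KPRrestored minus KPR-, for the 3 groups of cofactor genes (coloured) and related gene lists (grey), genes with a mean of at least 1 FPKM; black bars are medians, and the box shows the quartiles of all 11231 such genes with whiskers at the 5th and 95th percentiles. SWI/SNF (-0.06) and the other remodellers (-0.13) have medians below 0, and the other general transcription factors (0.11) have a median above it, all before the length trend is removed.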

How the data were processed

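Poly(A) RNA of 1 KPR- and 1 KPRrestored sample was made into directional paired-end libraries. The authors trimmed the reads (FASTX_Trimmer, BBMap), mapped them using TopHat and deposited FPKM values per gene estimated using Cufflinks. The submitters' processing notes name mm10, and versions and annotation are not given in the sources used here. The paper also names a geometric normalization with EdgeR. Whether the deposited values carry it was not settled, and if they do, the depths fitted here are on that scale. Groups were taken from the labels. Differences are log2(FPKM + 0.005), with a threshold of 0.5 and without p-values. With so small a pseudocount, changes of very few fragments pass the threshold, such as that of *Ptprc*, at 1.48 from about 0 and 1 fragments. Symbols were matched to GENCODE M21 and RefSeq (22148 of 23183 directly, 656 through a synonym). Depth was fitted to the steps of 444 and 445 low values (0.5 to 5.5 fragments) among 3283 genes with 1 transcript, with a mean fragment length of 215 bases; 77.9% and 77.8% lay within 0.1 of a whole fragment, against 20% by chance. Estimated fragments use the longest transcript and are upper estimates, and the depth and interval steps were tested on simulated data. The length trend is a lowess fit (fraction 0.3).

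The cofactor genes and the gene lists were chosen with earlier results of these data known. All 41 genes were named; of the other lists, at most the 2 largest rises and falls past 0.5 with a mean of at least 1 FPKM, and always the RUNX, *Cbfb*, MLL, *Trp53* and *Cdkn2a* genes. Some genes named by this rule are not reported here. *Actl6b*, *Dpf3*, *Bicra*, *Bicral*, *Taf7l*, *Tbpl1*, *Taf4b*, the marker genes and the overlapping or neighbouring genes were named after their values were seen. Alternatives were other pseudocounts, scalings, filters, thresholds, lengths and promoter windows. The scripts ran in Python 3.11.15 with statsmodels 0.14.6, scipy 1.17.1, pandas 2.3.3, matplotlib 3.10.9 and numpy 2.4.6.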

Additional observations from a re-analysis of the deposited data

How the results depend on the processing

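Over all genes, the counts of 3193 higher and 3002 lower genes became 1141 and 836 with a pseudocount of 1, 1358 and 1043 with a mean of at least 1 FPKM, 872 and 641 (of 8762) with a mean of at least 5 FPKM, and 1625 and 1527 with a threshold of 1. A mean of at least 5 FPKM leaves 38 of the 41 cofactor genes, without *Dpf1*, *Bcl7a* and *Taf7*, so 1 gene was higher and 0 lower, with 0 lower of 21 SWI/SNF genes and 0 higher of 13 TFIID genes. A threshold of 1 gave the same counts, 1 and 0, with *Phf10* alone past it. With the length trend removed, the median of the acetyl readers and writers was 0.0083 in place of -0.12, and 12 of the 41 genes moved outside their counting interval while 29 did not. With coding lengths, an alternative chosen after seeing the data, 4 intervals lay above 0 in place of 8. RUNX matches were in 3 genes in place of 6 with the 250 upstream bases. The 2 other pseudocounts and the 3 scalings (to the same total, to the same upper quartile, and centred on the median gene) kept all 41 genes within their counting intervals and on their side of the threshold, with shifts of 0.01, 0.03 and 0.01 for the scalings, but a pseudocount of 1 brought *Taf7* from 0.97 to 0.52, just past the threshold, and *Dpf1* from -0.88 to -0.63. No paired analysis was possible because there is 1 library per condition and the labels carry no replicate numbers, and leaving out a library leaves no comparison. The lowest fragment numbers with the longest transcript were those of *Taf7* and *Dpf1*.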
